A study of Rattus norvegicus with 105 samples.

Results

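Transcripts of 39 proteasome subunit genes were followed in rat frontal cortex across 11 groups of arrays, out of 14217 genes that had a probe set naming no other gene. A member was any gene whose single symbol in the platform's annotation began with Psma, Psmb, Psmc, Psmd or Psme and a number. Each gene was represented by the brightest of its probe sets on average, and 30 of the 39 had 1 probe set only. The letters of the rule matched 41 symbols, of which Psmc3ip and Psme3ip1 name interacting proteins and were left out. Probe sets for Psmb6 and Psme3, and 1 of those for Psma3, named further genes as well and were not used here. The rule chose genes by name, and measured values entered in the choice among a gene's probe sets.

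The proteasome is the enzyme complex that degrades proteins marked with ubiquitin. Its core is a barrel in which alpha rings form the gate and beta rings carry the protein-cutting sites. A cap of ATPase subunits, scaffold subunits and a lid recognises the substrate, removes its ubiquitin and unfolds it. In cells that receive interferon the cutting subunits Psmb6, Psmb7 and Psmb5 can be replaced by Psmb9, Psmb10 and Psmb8, which favours peptides for display on class I molecules of the major histocompatibility complex. In neurons the proteasome takes part in the turnover of synaptic proteins.

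The arrays came from 3 experiments, each with its own control. In the first, 12 arrays came from rats whose ventral hippocampus, a region that projects to the frontal cortex, was lesioned, and 10 from sham controls. In the second, 11 arrays came from rats in which the ventral hippocampus was disrupted with tetrodotoxin (TTX), a blocker of sodium channels, and 9 from sham controls. The third gave neuroleptics chronically: 9 arrays were of vehicle controls; clozapine had 10 arrays at its low, 9 at its medium and 8 at its high dose level; haloperidol had 9 at each level. Amounts were not in the labels, so a level of one drug is not matched to that of the other. The sources used here do not give strain, age, the agent of the lesion or the times of treatment. They also do not say whether each array was a separate animal, so the p-values measure only the spread between these samples, which may be technical.

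Values are log2 of intensities that were quantile-normalised within an experiment, and every difference is a treated mean minus the mean of its own control on that scale. Of 6 excitatory neuron markers 5 were measured, with means from 10.77 to 16.03, and all 6 inhibitory neuron markers had means from 11.40 to 14.82. On 4 arrays the mean correlation with the other arrays of the experiment was low: lesion replicate 7, lesion sham replicate 9, and replicate 8 of both medium and high haloperidol. The number of arrays limits the precision. The median standard error (SE) of a member's difference was 0.056 for the lesion, 0.060 for TTX and 0.055 for either drug mean against vehicle.

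No subunit transcript passed the test in any of the 12 comparisons, at an adjusted p under 0.05 from limma with Benjamini-Hochberg adjustment over 18625 probe sets. The threshold called 0% of all probe sets for the lesion, for TTX, for clozapine, for the difference between lesion and TTX, and for low clozapine and low haloperidol. It called 0.0161% for haloperidol, 0.0215% for medium clozapine, 0.00537% for high clozapine and for medium haloperidol, 0.0268% for high haloperidol and 1.2% for clozapine against haloperidol. All 39 members passed the filter on dim probe sets in the lesion and TTX experiments and 38 in the neuroleptic experiment, where Psmb8 did not. In 420 pairings of a member with 2 groups compared (each treated group or drug against its control, and clozapine against haloperidol), 0 had ranges that did not overlap. The 95% intervals of 32 of 39 members lay between -0.25 and 0.25 for the lesion, as did those of 34 of 39 for TTX, 32 of 38 for clozapine and 35 of 38 for haloperidol. The counts of ranges and of intervals were not taken over all genes, so they do not set the members apart from other genes.

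**Figure D1:**
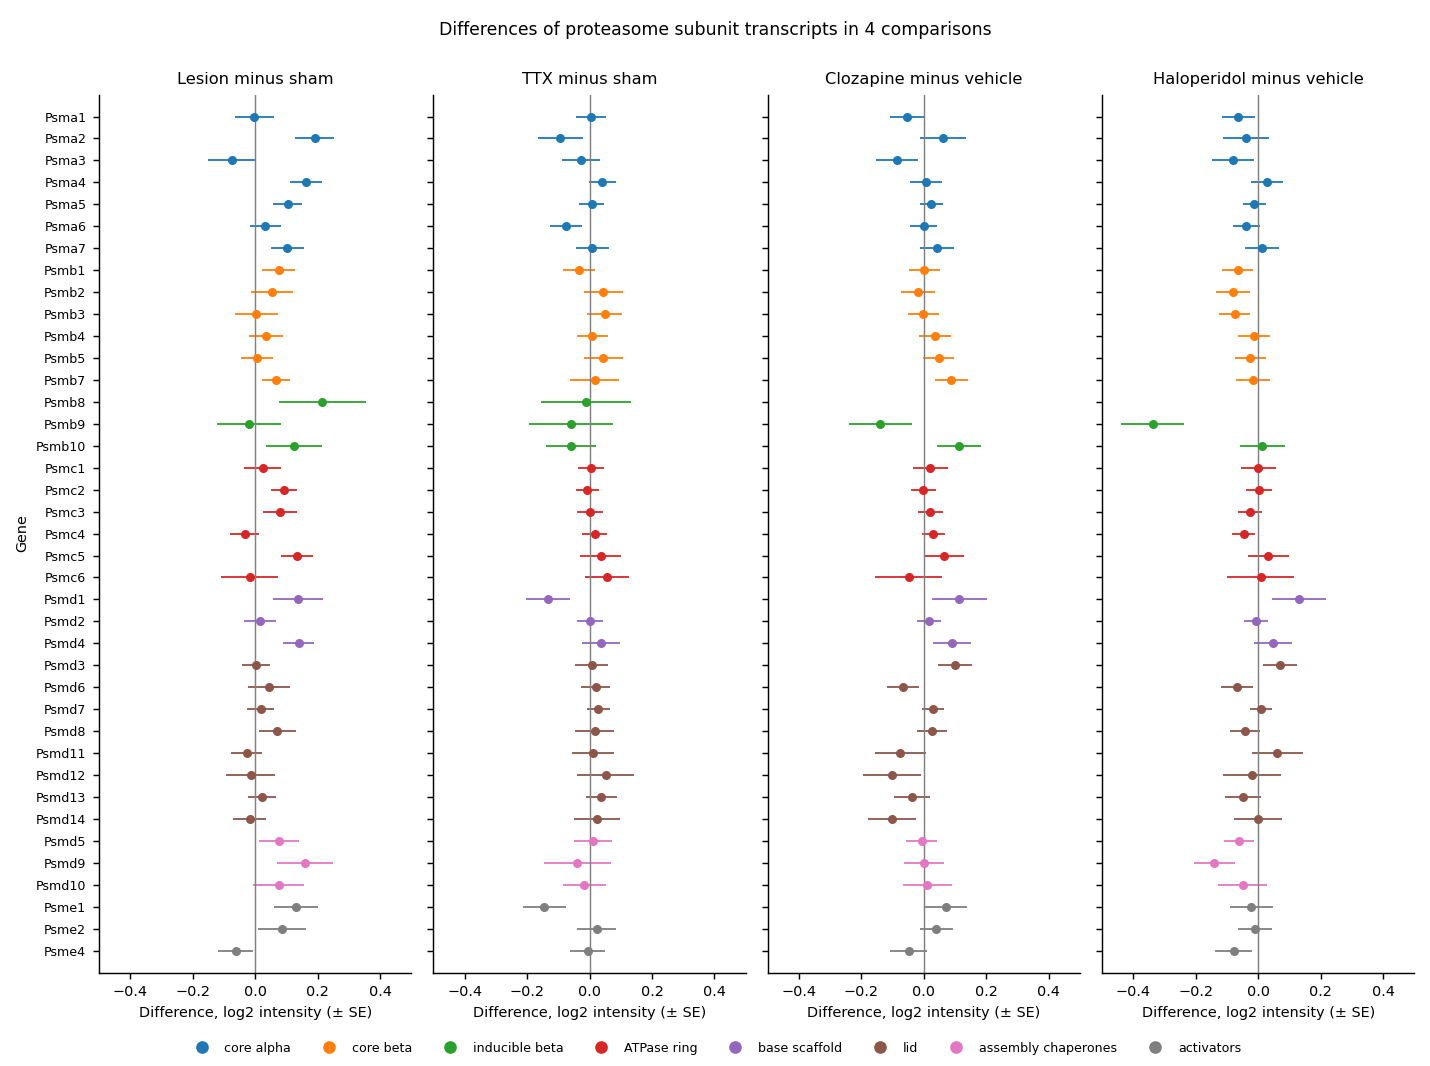
Difference from the control in log2 intensity (x axis, point and SE bar) for each of the 39 members (y axis), coloured by class, in 4 comparisons. Of the 39 points 30 lay to the right of 0 after the lesion, and the point farthest from 0 in any panel is Psmb9 under haloperidol at -0.34; Psmb8 was not tested in the neuroleptic experiment.

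After the lesion most subunit transcripts had a difference above 0, and none passed the test. This held for 30 of 39 members, where 51.5% of 10152 genes tested were above 0, and the median was 0.054 against 0.0034 over all genes. There were 6 higher and 0 lower members at an unadjusted p under 0.05, where 4.88% of all genes were higher and 3.15% lower. The 6 were Psma4, Psma2 and Psma5 of the alpha ring, Psmc5 and Psmc2 of the ATPase ring, and Psmd4, a ubiquitin receptor of the base.

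Psma4 ran from 12.49 through a median of 12.81 to 12.87 in the sham arrays and from 12.71 through a median of 12.95 to 13.07 in the lesion arrays. The groups overlapped, and 11 of 12 lesion arrays lay above the sham mean. The difference was 0.16 ± 0.051 (SE, n = 12 and 10; limma, adjusted p = 0.506). Psma2, another gate subunit, ran from 13.70 through a median of 13.89 to 14.11 in sham and from 13.83 through a median of 14.11 to 14.43 in lesion arrays. Its groups overlapped too, with 11 of 12 lesion arrays above the sham mean and a difference of 0.19 ± 0.062 (limma, adjusted p = 0.542). Psmd4 ran from 13.12 through a median of 13.19 to 13.34 in sham and from 13.20 through a median of 13.34 to 13.55 in lesion arrays. Here 10 of 12 lesion arrays lay above the sham mean, within overlapping groups, at a difference of 0.14 ± 0.049 (limma, adjusted p = 0.586). Psmc5, at 0.14, Psma5, at 0.10, and Psmc2, at 0.092, each had 10 of 12 lesion arrays above the sham mean and adjusted p-values (limma) from 0.588 to 0.621. The highest Psma2 value was on lesion replicate 7, and the lowest of Psma2 and Psma4 on lesion sham replicate 9. Both arrays were of low correlation and in the second run of sample numbers. Within the first and second run Psma4 differed by 0.10 and 0.22, Psma2 by 0.080 and 0.30 and Psmd4 by 0.17 and 0.11. Psmc5 differed by 0.14 and 0.13, Psma5 by 0.068 and 0.14 and Psmc2 by 0.056 and 0.13.

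**Figure D2:**
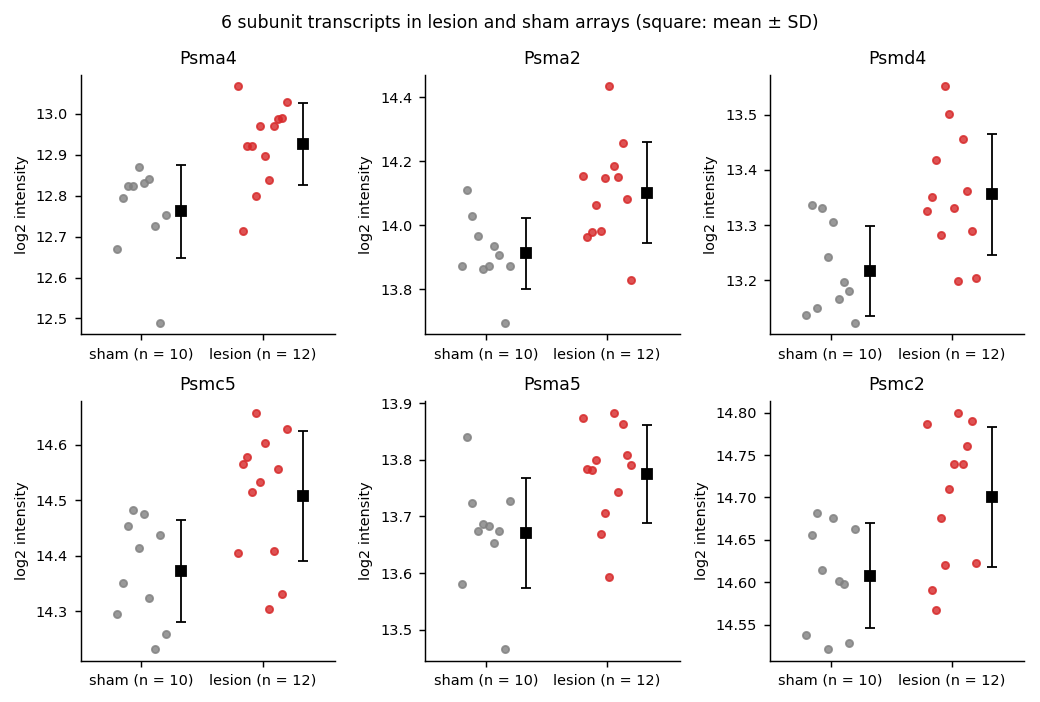
Log2 intensity (y axis) of each sham (n = 10) and lesion array (n = 12) for the 6 members with an unadjusted p under 0.05, with the mean and SD as a square and bar. The lesion mean was the higher one in each panel, by 0.092 for Psmc2 to 0.19 for Psma2, and the points of the groups overlapped in each.

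By class, all 6 constitutive beta subunits among the members, which lack Psmb6, were above 0 after the lesion, from 0.0038 for Psmb3 to 0.075 for Psmb1. The cutting subunits Psmb5 and Psmb7 differed by 0.0062 and 0.066. The inducible Psmb8, Psmb9 and Psmb10 differed by 0.21 ± 0.14, -0.020 ± 0.10 and 0.12 ± 0.089. The lid had a median of 0.0093 over its 8 members, with 5 above 0. The 3 assembly chaperones Psmd5, Psmd9 and Psmd10 were at 0.076, 0.16 and 0.075. The members with the smallest p below 0 were Psme4, an activator, at -0.062, Psma3 at -0.076 and the ATPase Psmc4 at -0.033.

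The median of the members was 0.013 within the first run of sample numbers (36 to 46) and 0.086 within the second (47 to 57), and 0.029 without the 2 lesion-experiment arrays of low correlation. Without lesion replicate 8 it was 0.031. The levels of markers of other cells are set beside this. Of 6 listed striatal neuron markers 5 were measured and 3 tested, and Penk, Drd1 and Ppp1r1b were at 0.39, 0.45 and -0.094. The summed intensity of the 5 ran from 11400 to 14100 in sham and from 11700 to 19300 in lesion arrays. The sum of 6 inhibitory neuron markers ran from 58400 to 76100 and from 67600 to 88600, and that of 6 microglia markers from 34200 to 49200 and from 37400 to 55700. Of the tested markers 5 of 6 were above 0 for inhibitory neurons, 4 of 5 for microglia, 2 of 6 for astrocytes, 1 of 5 for excitatory neurons, 0 of 5 for oligodendrocytes and 1 of 5 for endothelium. The medians of the last 3 were -0.037, -0.10 and -0.12. The sum of 5 oligodendrocyte markers ran from 145000 to 187000 in sham and from 114000 to 198000 in lesion arrays, and that of 5 endothelial markers from 16200 to 25300 and from 15800 to 22300. Their part in the result was not tested, and in tissue RNA fewer cells of a type and less RNA per cell cannot be told apart.

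After TTX the subunit transcripts lay close to their controls. The difference was above 0 for 26 of 39 members, where 52% of 10151 genes were, with a median of 0.0088 against 0.0035 over all genes. At an unadjusted p under 0.05, 0 members were higher and 1 lower, where 2.77% of genes were higher and 1.59% lower. The 1 was Psme1, a subunit of the interferon-inducible activator ring that opens the core gate. It ran from 12.14 through a median of 12.45 to 12.71 in sham and from 12.08 through a median of 12.35 to 12.50 in TTX arrays, which overlap. The difference was -0.14 ± 0.068 (limma, adjusted p = 0.999), with 10 of 11 TTX arrays below the sham mean. Averaged with a dim second probe set of Psme1 it was 0.11.

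The next smallest p-values below 0 after TTX belonged to Psmd1, a scaffold subunit, at -0.13, and Psma6, at -0.075. Above 0 they belonged to Psma4, at 0.040, Psmb3, at 0.049, and Psmc6, at 0.056. All 8 lid subunits were above 0, from 0.0071 for Psmd3 to 0.052 for Psmd12, and all 3 inducible beta subunits below 0, from -0.059 for Psmb10 to -0.011 for Psmb8. Psmb5 and Psmb7 differed by 0.044 and 0.016. Within the first and second run of sample numbers the median of the members was -0.0036 and -0.0014, without TTX sham replicate 2 it was -0.0046, and with the run as a term 0.00072.

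The lesion effect exceeded the TTX effect for 26 of 39 members in a joint fit, where 50.5% of 10149 genes did, with a median of 0.050 against 0.0011. Of the members 3 were higher and 0 lower at an unadjusted p under 0.05, where 3.23% of genes were higher and 3.15% lower. Psma2 differed by 0.28 ± 0.093, Psme1 by 0.27 ± 0.10 and Psmd1 by 0.27 ± 0.11 (limma, adjusted p = 0.709 for Psma2 and 0.7101 for Psmd1). Each had a mean above its control after the lesion and below it after TTX. With the probe sets of Psme1 averaged its value was -0.012. The smallest p-values below 0 were those of Psmc4, at -0.050, Psme4, at -0.056, and Psmc6, at -0.073. Psmb5, Psmb7, Psmb8, Psmb9 and Psmb10 were at -0.038, 0.050, 0.23, 0.039 and 0.18.

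Under haloperidol, a typical antipsychotic that blocks dopamine D2 receptors, the subunit with the smallest p was Psmb9, the inducible counterpart of Psmb6. It ran from 9.31 through a median of 9.67 to 10.13 on the 9 vehicle arrays and from 8.77 through a median of 9.40 to 9.76 on the 27 haloperidol arrays. The groups overlapped, and 24 of 27 haloperidol arrays lay below the vehicle mean. The difference was -0.34 ± 0.10 (SE; 95% interval -0.54 to -0.14; limma, adjusted p = 0.419), which did not pass the test. It was -0.44 at the low, -0.28 at the medium and -0.29 at the high dose level, all against the same 9 vehicle arrays. Within the 4 runs of sample numbers it was -0.68, -0.19, -0.23 and -0.25. These rest on 2, 2, 2 and 3 vehicle arrays, with means of 9.99, 9.52, 9.68 and 9.56. Over 8 other settings the difference ran from -0.34 to -0.31, with adjusted p-values (limma) from 0.179 to 0.609. Psmb9 was dim, with 34.5% of genes having a lower mean over all arrays.

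Psmb9 has neighbours of related function on chromosome 20, in the order Tap2, Psmb8, Tap1, Psmb9; Tap1 and Tap2 encode the transporter that carries proteasome products to class I molecules. In this experiment Tap1, Tap2 and Psmb8 were under the filter on dim probe sets, so their values come from the fit without a filter. Tap1 had a mean of 8.40 ± 0.31 (SD, n = 9) on vehicle and 7.83 ± 0.68 (SD, n = 27) on haloperidol arrays, a difference of -0.57 ± 0.21 (limma, adjusted p = 0.806). Tap2 had a mean of 8.95 ± 0.31 (SD, n = 9) on vehicle and 8.48 ± 0.55 (SD, n = 27) on haloperidol arrays, a difference of -0.47 ± 0.18 (limma, adjusted p = 0.806). Psmb8 differed by -0.40 ± 0.22 (limma, adjusted p = 0.889). Below the vehicle mean lay 21 of 27 haloperidol arrays for Tap1, 21 for Tap2 and 20 for Psmb8. Within the runs Tap1 was below vehicle in each, at -1.01, -0.083, -0.15 and -0.74, while Tap2 and Psmb8 were above it in the third run, at 0.16 and 0.026. These values too rest on 2, 2, 2 and 3 vehicle arrays. Within groups of the lesion, TTX and neuroleptic experiments Psmb9 had Pearson's r of -0.40, 0.37 and 0.29 with Tap1. With Tap2 it had 0.10, 0.25 and 0.18, and with Psmb8 0.18, 0.41 and 0.42. The remaining inducible subunit Psmb10, whose gene is on chromosome 19, differed by 0.014 ± 0.071. The interferon regulator Irf7 was at -0.34, and the summed intensity of 6 microglia markers ran from 36500 to 40500 on vehicle and from 34500 to 45100, from 33400 to 43300 and from 34100 to 40500 at low, medium and high haloperidol; the part of either was not tested.

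Clozapine, an atypical antipsychotic, was compared with the same vehicle arrays. Psmb9 differed by -0.14 ± 0.10, Psmb8 by -0.26 ± 0.22, Tap1 by -0.48 ± 0.21 and Tap2 by -0.21 ± 0.18. Below the vehicle mean lay 23 of 27 clozapine arrays for Tap1 and 18 for Psmb9. Psmb10 differed by 0.11 ± 0.071. At low, medium and high clozapine Psmb9 differed by -0.14, -0.055 and -0.22.

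**Figure D3:**
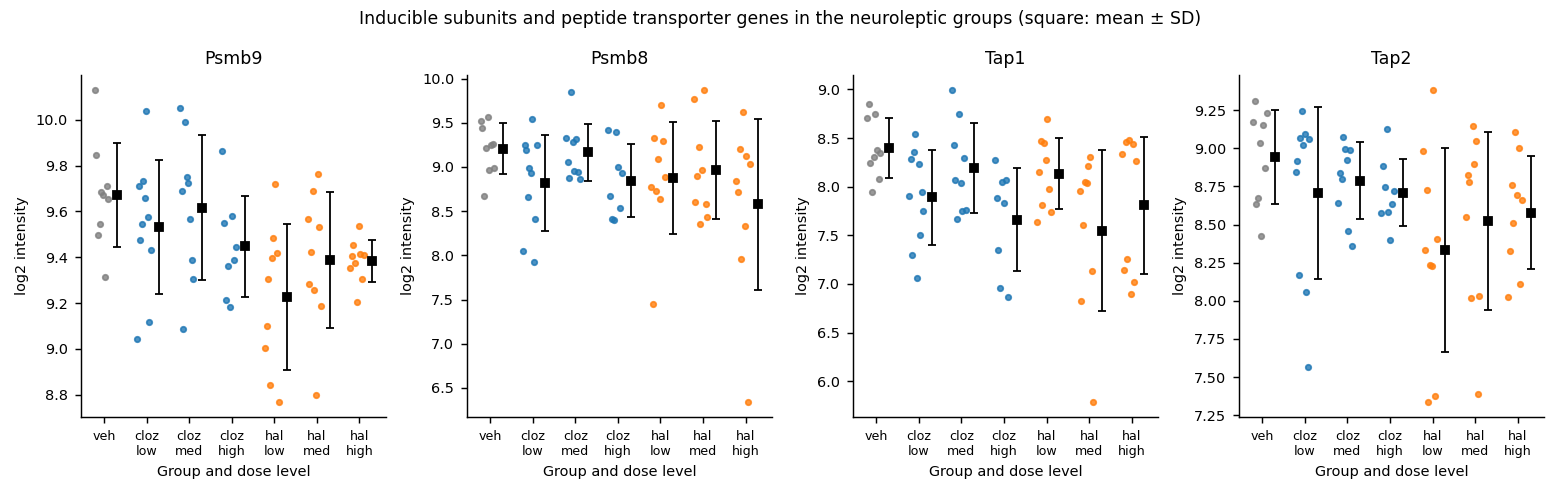
Log2 intensity (y axis) of Psmb9, Psmb8, Tap1 and Tap2 on each array of the 7 neuroleptic groups (x axis), with the mean and SD as a square and bar. Psmb9 had a vehicle mean of 9.67, and the means of the 3 haloperidol groups lay between 9.23 and 9.39.

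The sequences before the starts of the inducible genes are given because their motifs can be set beside the values above and because Psmb9 and Tap1 are read in opposite directions, with 456 bases between their starts in RefSeq's GRCr8 assembly. Each is the 250 bases before the annotated start, 5′ to 3′ on the gene's own strand. Capitals mark 6 searched motifs, on either strand: GGGCGG (GC box), CGGAAG (Ets core), CCAAT (NF-Y box), TGACNNNGC (antioxidant response element core), GAAA and GAAA with any 2 bases between (interferon response element core) and TTCNNNGAA (gamma-activated sequence). Psmb9 is from chr20:4668750-4668999 (plus strand), Tap1 from chr20:4668544-4668793 (minus strand), Psmb8 from chr20:4657032-4657281 (minus strand) and Psmb10 from chr19:50743293-50743542 (minus strand).
Psmb9: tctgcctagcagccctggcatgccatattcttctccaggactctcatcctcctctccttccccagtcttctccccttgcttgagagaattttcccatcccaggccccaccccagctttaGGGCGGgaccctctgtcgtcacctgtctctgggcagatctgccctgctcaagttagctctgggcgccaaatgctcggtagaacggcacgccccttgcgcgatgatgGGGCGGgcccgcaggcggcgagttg
Tap1: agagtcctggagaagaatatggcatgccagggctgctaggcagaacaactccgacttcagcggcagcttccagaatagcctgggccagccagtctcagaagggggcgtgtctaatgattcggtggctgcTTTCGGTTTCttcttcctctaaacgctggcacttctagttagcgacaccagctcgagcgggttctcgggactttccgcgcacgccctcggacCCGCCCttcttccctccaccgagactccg
Psmb8: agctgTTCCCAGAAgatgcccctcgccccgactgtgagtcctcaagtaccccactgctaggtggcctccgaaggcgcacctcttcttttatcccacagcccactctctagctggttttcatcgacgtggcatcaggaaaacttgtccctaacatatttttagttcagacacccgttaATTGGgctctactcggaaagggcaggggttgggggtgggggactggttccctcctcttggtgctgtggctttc
Psmb10: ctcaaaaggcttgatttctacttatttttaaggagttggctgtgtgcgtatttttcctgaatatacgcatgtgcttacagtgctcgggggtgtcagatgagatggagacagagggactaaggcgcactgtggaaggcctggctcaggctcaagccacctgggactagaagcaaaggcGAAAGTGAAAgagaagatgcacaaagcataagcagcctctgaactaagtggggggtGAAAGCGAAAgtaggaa
The Psmb9 stretch held 2 GC boxes, beginning 131 and 25 bases before the start. The Tap1 stretch held 1 interferon response element core, at 121 bases, and a GC box, at 29. This interferon response element core lies between the starts of Tap1 and Psmb9, outside the 250 bases searched for Psmb9. The Psmb8 stretch held a gamma-activated sequence, at 245 bases, and an NF-Y box, at 73. The Psmb10 stretch held 2 interferon response element cores, at 73 and 17 bases. No matches shared a base in the sequences shown, and a match is a run of letters, not a measured binding site.

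The RefSeq table held promoters for 35 of the 39 members, all but Psma7, Psmd6, Psmd12 and Psmd14. Over the same 250 bases the GC box was in 24 of 35 members and 30.5% of 33469 promoters, the Ets core in 15 of 35 and 13.9%, and the NF-Y box in 17 of 35 and 34%. The antioxidant response element core, a type of site bound by Nfe2l1 and Nfe2l2, was in 6 of 35 (Psma3, Psmb2, Psmb5, Psmd1, Psmd9 and Psme4) and 10.1%. The interferon response element core was in 5 of 35 (Psma4, Psmb3, Psmb10, Psmd7 and Psme2) and 3.41%, and the gamma-activated sequence in 4 of 35 (Psmb8, Psmc6, Psmd3 and Psmd7) and 7.67%. The 33469 promoters were not limited to genes measured or expressed here. Shares over genes with levels like those of the members were not taken.

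Across the members as a whole, the haloperidol differences were near those of all genes. The difference was above 0 for 13 of 38, where 38.7% of 10128 genes were, with a median of -0.021 against -0.019 over all genes; with the run of sample numbers as a term it was -0.013. Members at an unadjusted p under 0.05 numbered 0 higher and 2 lower, where 2.12% of genes were higher and 3.41% lower. Beside Psmb9 the other was Psmd9, a chaperone of ATPase ring assembly, at -0.14 ± 0.064 (limma, adjusted p = 0.706). At high haloperidol Psmd9 ran from 10.59 through a median of 10.66 to 10.85 and from 10.57 through a median of 11.01 to 11.24 on vehicle. The groups overlapped, although all 9 arrays lay below the vehicle mean. That difference was -0.23 ± 0.079 (limma, adjusted p = 0.419), and within the 3 runs holding both groups it was -0.46, 0.076 and -0.17. The beta subunit Psmb3 ran from 13.47 through a median of 13.63 to 13.77 at high haloperidol and from 13.69 through a median of 13.76 to 13.87 on vehicle. It too had all 9 arrays below the vehicle mean, with overlapping groups, at -0.15 ± 0.061 (limma, adjusted p = 0.533). The log2 ratio of the 3′ to the 5′ control probe set of beta-actin, a measure of RNA integrity, was 1.12 ± 0.14 (SD, n = 9) at high haloperidol and 0.94 ± 0.11 (SD, n = 9) on vehicle. For the GAPDH control probe sets it was 0.078 ± 0.054 (SD, n = 9) and 0.070 ± 0.049 (SD, n = 9). The part of either in these values was not tested.

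All 6 constitutive beta subunits among the members were below 0 under haloperidol, from -0.081 for Psmb2 to -0.014 for Psmb4, with Psmb5 at -0.025. Psmb3, at -0.075, had the third smallest p below 0. Above 0 the smallest p-values were those of Psmd1, at 0.13, the lid subunit Psmd3, at 0.070, and Psmd4, at 0.047. At the single dose levels 8, 14 and 15 of 38 members were above 0 at low, medium and high haloperidol, where 42.4%, 41.8% and 40.6% of genes were. The medians were -0.040, -0.014 and -0.029, and -0.031, -0.0033 and -0.016 with the run as a term. With an unadjusted p under 0.05, 1 member was lower at low, 1 at medium and 3 at high haloperidol, where 2.24%, 2.21% and 5.35% of genes were lower, and 0 members were higher, where 1.47%, 1.49% and 1.96% of genes were. Psmb9 was among the lower members at each level, and at the high level the others were Psmd9 and Psmb3.

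Other small p-values below 0 belonged to Psmb2 (-0.10) and Psmb1 (-0.085) at the low level and to Psmd6 (-0.086) and Psme4 (-0.078) at the medium level. Above 0 at the low level they belonged to Psmd1 (0.16), Psmd3 (0.081) and Psmd4 (0.045). At the medium level they belonged to Psmd3 (0.083), Psmd1 (0.13) and the activator Psme2 (0.071). At the high level they belonged to Psma4 (0.065), Psmd1 (0.10) and Psmc5 (0.061). At low, medium and high haloperidol Psmb5 was at 0.0049, -0.0086 and -0.072, Psmb7 at 0.016, -0.025 and -0.041, and Psmb10 at -0.016, 0.0013 and 0.056.

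Under clozapine 23 of 38 members were above vehicle, where 49.5% of genes were, with a median of 0.014 against -0.00090 over all genes. At an unadjusted p under 0.05, 0 members were higher or lower, where 1.96% of genes were higher and 1.86% lower. Psmd3, at 0.10 ± 0.055, Psmb7, at 0.088 ± 0.054, and Psmb10 had the smallest p-values above 0. Below 0 they were those of Psmb9, of Psmd14, the deubiquitinating enzyme of the lid, at -0.10 ± 0.077, and of Psmd6, at -0.066 ± 0.051 (limma, adjusted p = 0.977 for these 6). Psmb5 differed by 0.047. The median of the members was -0.0013 with the run of sample numbers as a term and -0.0035 without vehicle replicate 3.

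At the single levels 20, 27 and 21 of 38 were above 0 at low, medium and high clozapine, where 48%, 51.4% and 49.9% of genes were. The medians were 0.0094, 0.037 and 0.015. With the run as a term they were 0.0052, 0.0035 and 0.011, and with array weights the low level was at -0.015. The 1 member with an unadjusted p under 0.05 at a single level was Psmd4 at low clozapine, 0.16 ± 0.072 with all 10 arrays above the vehicle mean (limma, adjusted p = 0.9998). At that level 1.12% of genes were higher and 1.75% lower at this p; at medium clozapine, with 0 members, 2.15% were higher and 2.04% lower, and at high clozapine, with 0 members, 1.77% and 1.89%. Psmd3 (0.12) and Psmd2 (0.054) followed above 0, and Psme4 (-0.12), Psmb9 and Psma3 (-0.090) below 0. At medium clozapine these were Psmb10 (0.16), Psme1 (0.15) and Psmb7 (0.11) above 0, and Psmd6 (-0.11), Psmd14 (-0.13) and Psmd12 (-0.16) below 0. At high clozapine they were Psmd1 (0.14), Psmc4 (0.058) and Psmb7 (0.084) above 0, and Psmb9, Psmd14 (-0.13) and Psmd12 (-0.14) below 0. Psmb5 was at 0.045, 0.058 and 0.039 at the 3 levels, Psmb7 at 0.074 at the low level, and Psmb10 at 0.10 and 0.084 at the low and high levels.

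Between the drugs, 30 of 38 members were higher under clozapine than under haloperidol, where 60.2% of genes were. The median was 0.037 against 0.018 over all genes. With the run of sample numbers as a term the median of the members was 0.023, and that of all genes was not taken. The drugs were spread unevenly over the runs: the third held 11 clozapine and 4 haloperidol arrays, and the fourth 4 and 9. The log2 ratio of the 3′ to the 5′ beta-actin control probe set was 0.95 ± 0.13, 0.94 ± 0.10 and 0.94 ± 0.14 at low, medium and high clozapine and 1.002 ± 0.13, 0.999 ± 0.16 and 1.12 ± 0.14 at low, medium and high haloperidol (SD, n = 8 to 10). For the GAPDH control probe sets it was 0.098 ± 0.042, 0.078 ± 0.057 and 0.048 ± 0.058 for clozapine in that order. For haloperidol it was 0.11 ± 0.057, 0.097 ± 0.059 and 0.078 ± 0.054. The part of either in this comparison was not tested. At an unadjusted p under 0.05, 7 members were higher and 1 lower, where 9.07% of genes were higher and 3.98% lower. Psmd9 ran from 10.66 through a median of 10.95 to 11.23 on the 27 clozapine arrays and from 10.59 through a median of 10.80 to 11.15 on the 27 haloperidol arrays. These overlap; the difference was 0.14 ± 0.046 (limma, adjusted p = 0.0986), and 0.10 with the run of sample numbers as a term (limma, adjusted p = 0.351). Psmb9 differed by 0.20 ± 0.071 (limma, adjusted p = 0.142) and was above 0 in each of the 4 runs, at 0.35, 0.11, 0.15 and 0.038. Psmb7 differed by 0.10 ± 0.038 (limma, adjusted p = 0.151) and by 0.045 with the run as a term. Psmc4 differed by 0.077 ± 0.026 (limma, adjusted p = 0.117), but by -0.13 averaged with its dim second probe set.

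All 6 constitutive beta subunits among the members were higher under clozapine, from 0.049 for Psmb4 to 0.10 for Psmb7, as were both tested inducible ones, with Psmb10 at 0.10. Psmb3 (0.073), Psmb5 (0.073) and the lid subunit Psmd8 (0.067) completed the 7. Of the 7, only Psmd9 and Psmb9 were above 0 in every run. Psmb3 was at -0.10 and Psmc4 at -0.015 in run 2, Psmb7 at -0.016 in run 3 and Psmd8 at -0.042 in run 4. Psmb5 was at -0.018 in run 2 and -0.0097 in run 3. In their remaining runs these members were above 0. The 1 lower member was Psmd11, of the lid, which ran from 13.30 through a median of 13.70 to 14.10 under clozapine and from 13.55 through a median of 13.79 to 14.40 under haloperidol. These overlap, and the difference was -0.14 ± 0.058 (limma, adjusted p = 0.230). It was below 0 within each run, at -0.10, -0.088, -0.090 and -0.13, and at -0.035 with its 3 probe sets averaged. Psmd14, at -0.10, and Psmd12, at -0.082, followed below 0.

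The 8 single groups were also set side by side, each against its own control. In the alpha ring Psma3 was below 0 in all 8, from -0.11 to -0.027, and Psma7 above 0 in all 8, from 0.00021 to 0.10. Psma1 ran from -0.083 to 0.0060, Psma2 from -0.093 to 0.19 and Psma4 from -0.0048 to 0.16. Psma5 ran from -0.039 to 0.10 and Psma6 from -0.075 to 0.033. In the beta ring Psmb1 ran from -0.085 to 0.075, Psmb2 from -0.10 to 0.054 and Psmb3 from -0.15 to 0.054. Psmb4 ran from -0.015 to 0.064, Psmb5 from -0.072 to 0.058 and Psmb7 from -0.041 to 0.11. Among the inducible subunits Psmb9 was below 0 in all 8, from -0.44 to -0.020, and Psmb10 ran from -0.059 to 0.16. Psmb8 was tested in 2 of the 8, at -0.011 after TTX and 0.21 after the lesion.

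Of the ATPases, which unfold the substrate and thread it into the core, Psmc1 ran from -0.024 to 0.038, Psmc2 from -0.016 to 0.092 and Psmc3 from -0.062 to 0.079. Psmc4 ran from -0.060 to 0.058, Psmc5 from -0.022 to 0.14 and Psmc6 from -0.083 to 0.074. Of the base scaffold, Psmd4 was above 0 in all 8, from 0.035 to 0.16, while Psmd1 ran from -0.13 to 0.16 and Psmd2 from -0.061 to 0.054. In the lid Psmd3 was above 0 in all 8, from 0.0015 to 0.12, and Psmd7 ran from -0.0057 to 0.035. Psmd6 ran from -0.11 to 0.045, Psmd8 from -0.061 to 0.071 and Psmd11 from -0.11 to 0.065. Psmd12 ran from -0.16 to 0.052, Psmd13 from -0.085 to 0.038 and Psmd14 from -0.13 to 0.047. The assembly chaperones Psmd5, Psmd9 and Psmd10, which leave the finished complex, ran from -0.12 to 0.076, from -0.23 to 0.16 and from -0.10 to 0.075. The activators Psme1, Psme2 and Psme4 ran from -0.14 to 0.15, from -0.090 to 0.086 and from -0.12 to 0.00027. The 6 dose groups share the vehicle arrays, so these signs are not independent.

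Of 36 further genes of the pathway, 30 were measured and tested, and 0 passed the test (limma) for the lesion, TTX, clozapine or haloperidol. At an unadjusted p under 0.05, 2 were higher and 1 lower after the lesion, 1 higher and 0 lower after TTX, 0 higher and 2 lower under clozapine, and 1 higher and 2 lower under haloperidol. Over all genes the shares higher and lower were 4.88% and 3.15% for the lesion, 2.77% and 1.59% for TTX, 1.96% and 1.86% for clozapine, and 2.12% and 3.41% for haloperidol. After the lesion the higher ones were Uchl5, a deubiquitinating enzyme of the cap, at 0.15 ± 0.047 with all 12 arrays above the sham mean (limma, adjusted p = 0.506), and the assembly chaperone Psmg1, at 0.11. The lower one was Nfe2l1, the transcription factor that raises subunit genes when proteasome activity is short, at -0.23 ± 0.11, and the inhibitor Psmf1 followed at -0.14. After TTX the higher one was Adrm1, another ubiquitin receptor of the base, at 0.26 ± 0.11 with all 11 arrays above the sham mean (limma, adjusted p = 0.999). The chaperone Psmg4 followed at 0.073, and Nfe2l2 and Ddi2, the protease that activates Nfe2l1, were at -0.12 and -0.092. Under clozapine the lower ones were Zfand5, which binds the proteasome, at -0.095 ± 0.034, and Psmf1, at -0.16 ± 0.074; Stub1 and Uba1, enzymes of ubiquitin attachment, were at 0.093 and 0.055. Under haloperidol the lower ones were Zfand5, at -0.084 ± 0.034, and the deubiquitinating enzyme Usp14, at -0.081, and the higher one was Ecpas, at 0.10, followed by Zfand2a at 0.10.

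Of 25 genes of interferon response and antigen presentation 21 were measured, and 12, 14, 10 and 10 were tested for the lesion, TTX, clozapine and haloperidol; 0 passed the test (limma). Of these 2 were higher at an unadjusted p under 0.05 after the lesion, 1 was lower under haloperidol, and 0 reached it after TTX or under clozapine; the shares of all genes are those just given, 4.88% higher for the lesion and 3.41% lower for haloperidol. Under haloperidol 1 of 10 was above 0, where 38.7% of all genes were, with a median of -0.060. Irf7 was at -0.34 ± 0.15, with 21 of 27 arrays below the vehicle mean (limma, adjusted p = 0.693), Tapbp, which helps load peptides on class I molecules, at -0.23 ± 0.14, and Ifit2 at 0.080. After the lesion 5 of 12 were above 0, where 51.5% of all genes were. Tap2 was at 0.24 ± 0.089 with 11 of 12 arrays above the sham mean (limma, adjusted p = 0.588) and B2m, the light chain of class I molecules, at 0.12 ± 0.055, while Ifit2 and Irf9 were at -0.21 and -0.10. After TTX 4 of 14 were above 0, where 52% of all genes were, with Irf1 at 0.11, Stat2 at 0.037, Gbp2 at -0.31 and B2m at -0.082. Under clozapine 4 of 10 were above 0, where 49.5% of all genes were, with Stat2 at 0.089, Irf1 at 0.058, and the class II genes RT1-Da and Cd74 at -0.25 and -0.19.

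In 2 of the 3 experiments the mean of the members varied more between stretches of sample numbers than between groups. The titles number the samples, and the numbers were divided here into consecutive runs, 2 for the lesion, 2 for TTX and 4 for the neuroleptic experiment. The labels mark no such borders, so a run is not a known batch and the shares below depend on where the borders were set. Runs held 59.4% of the variance of the mean of the members among the 63 neuroleptic arrays, and the 7 groups held 9.04%. Among the 20 TTX arrays runs held 44.2% and groups 0.078%. Among the 22 lesion arrays runs held 0.13% and groups 26.1%. In the neuroleptic experiment the mean of the members, centred on the experiment, was -0.041 ± 0.058 (SD, n = 16) in numbers 2 to 17, -0.056 ± 0.031 (SD, n = 14) in 18 to 31, 0.065 ± 0.038 (SD, n = 17) in 32 to 48 and 0.020 ± 0.033 (SD, n = 16) in 49 to 64. By group it ran from -0.034 ± 0.060 (SD, n = 9) at low haloperidol to 0.028 ± 0.062 (SD, n = 9) at medium clozapine.

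**Figure D4:**
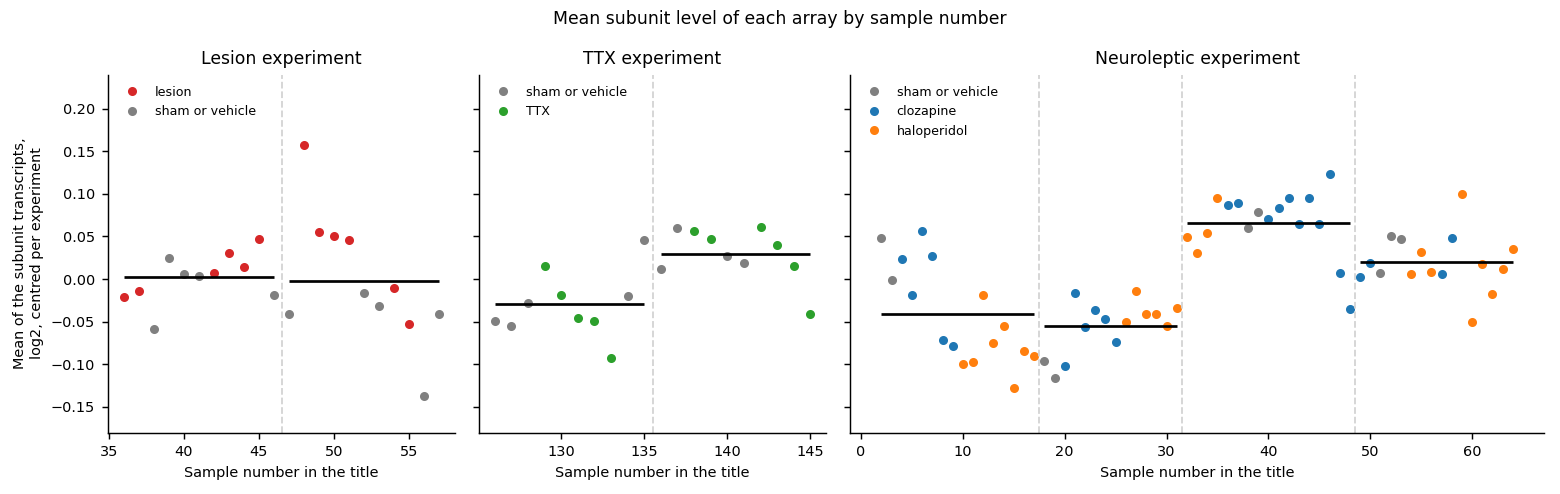
Mean of the members on each array (y axis, log2, centred on the experiment) against the sample number in the title (x axis), coloured by treatment, with the mean of each run as a black line and run borders dashed. The third neuroleptic run had a mean of 0.065 and the second -0.056.

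Within groups, the median share of a member's variance that lay between runs was 40.4% in the neuroleptic experiment, against 24.6% over all genes, and 29 of 38 members were above that gene median. The values were 15.4% and 10.5% for TTX and 4.66% and 4.94% for the lesion. Relative to the first neuroleptic run, Psma2 was at 0.35 in the third, and Psmc6 at -0.39, -0.27 and 0.17 in the second, the third and the fourth. The log2 ratio of the 3′ to the 5′ beta-actin control probe set was 1.003 ± 0.082 (SD, n = 16), 0.96 ± 0.11 (SD, n = 14), 0.86 ± 0.10 (SD, n = 17) and 1.12 ± 0.11 (SD, n = 16) in the 4 runs. For the GAPDH control probe sets it was 0.077 ± 0.055, 0.142 ± 0.045, 0.081 ± 0.040 and 0.043 ± 0.032 (SD) in the same runs. The part of either in these shifts was not tested.

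Correlations (Pearson's r) between subunit transcripts were taken within groups. The median over member pairs was 0.092, 0.14 and 0.22 in the lesion, TTX and neuroleptic experiments, with 22, 20 and 63 arrays, after each group's mean was removed. Between members and other genes the median was 0.014, 0.017 and 0.026. Pairs of one class had medians of 0.16, 0.27 and 0.36. With the run removed as well, the medians over all member pairs were 0.10, 0.067 and 0.10. These are descriptions: members measured on one array share its RNA, hybridisation and run.

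The pair with the highest r, ranked by its lowest value in the 3 experiments, was Psmb1 and Psmb4, both beta subunits without a cutting site, with 0.80, 0.77 and 0.83. The 5 core subunits Psma2, Psma7, Psmb1, Psmb4 and Psmb7, picked for their high correlations, had pairs from 0.61 to 0.82, from 0.40 to 0.82 and from 0.55 to 0.85. With the run removed as well their pairs ran from 0.62 to 0.83, from 0.014 to 0.69 and from 0.54 to 0.76. The stretches before Psmb1, chr1:65134771-65135020 (minus strand), and Psmb4, chr2:185134562-185134811 (minus strand), are shown as those of the pair with the highest r, with the same motifs in capitals.
Psmb1: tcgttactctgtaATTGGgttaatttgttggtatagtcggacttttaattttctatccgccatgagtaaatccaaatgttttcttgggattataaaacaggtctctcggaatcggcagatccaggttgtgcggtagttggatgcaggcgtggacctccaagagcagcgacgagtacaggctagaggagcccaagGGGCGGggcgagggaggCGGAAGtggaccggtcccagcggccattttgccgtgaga
Psmb4: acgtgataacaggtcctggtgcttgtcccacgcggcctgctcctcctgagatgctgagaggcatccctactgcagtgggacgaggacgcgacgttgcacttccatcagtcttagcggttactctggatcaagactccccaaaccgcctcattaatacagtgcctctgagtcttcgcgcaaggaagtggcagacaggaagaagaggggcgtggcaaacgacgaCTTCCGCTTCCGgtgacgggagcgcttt
The Psmb1 stretch held an NF-Y box, a GC box and an Ets core, the last beginning 39 bases before the start. The Psmb4 stretch held 2 adjacent Ets cores on the opposite strand, at 28 and 22 bases.

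A second set, picked in the same way, was the ATPase Psmc6 with the lid subunits Psmd12 and Psmd14. Their pairs ran from 0.71 to 0.75 in the lesion, from 0.62 to 0.82 in the TTX and from 0.84 to 0.92 in the neuroleptic experiment. Against the 5 core subunits their median r was 0.13, -0.58 and -0.18. With the run removed as well the pairs of the 3 ran from 0.71 to 0.76, from 0.39 to 0.73 and from 0.69 to 0.80, and the median against the core subunits was 0.13, -0.34 and -0.18. In the neuroleptic runs the mean of the 3 was 0.074, -0.24, -0.11 and 0.26, and that of the 5 core subunits -0.10, -0.044, 0.14 and -0.010. Psmd11 had r of -0.55, -0.66 and 0.13 with the mean of the other members.

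**Figure D5:**
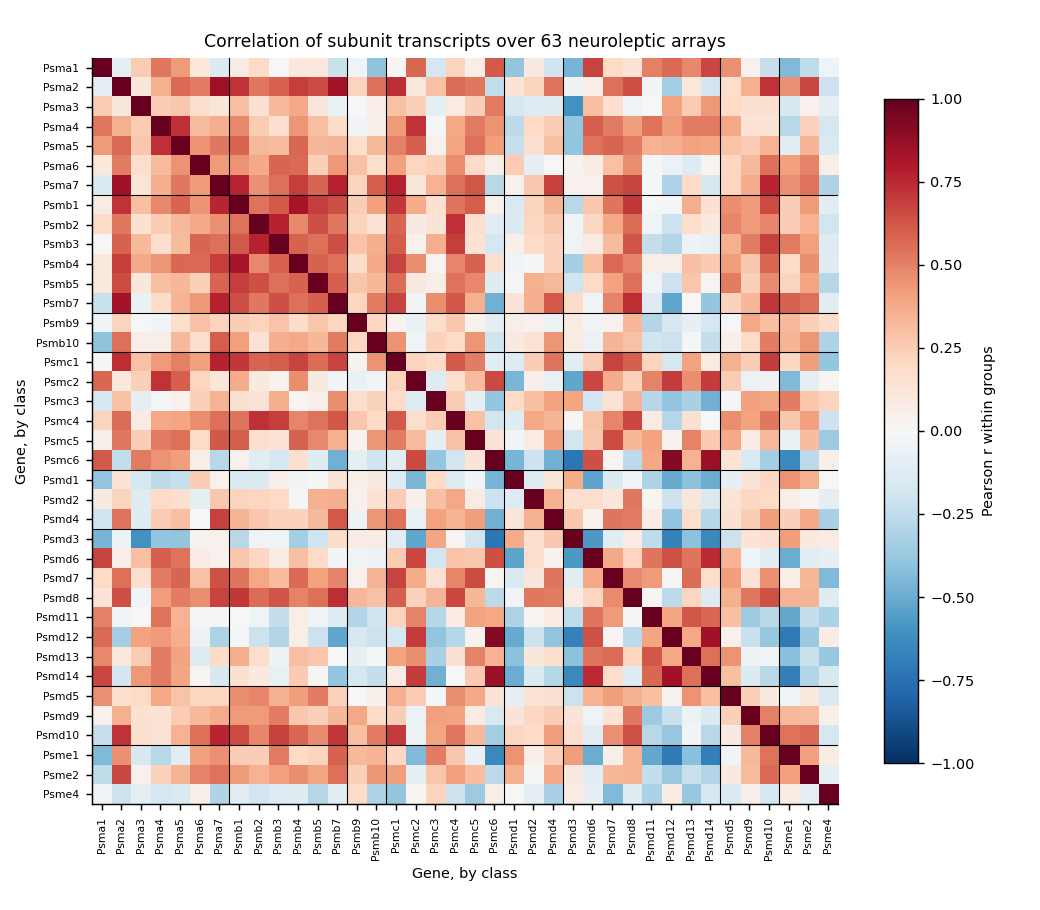
Correlation (colour, Pearson's r within groups) of each pair of the 38 members tested in the neuroleptic experiment, ordered by class with black lines between classes. Psmc6, Psmd12 and Psmd14 had r from 0.84 to 0.92 with each other, and the median over all pairs was 0.22.

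Probe sets of one gene did not always follow each other. The probe set that represents Psmd14 had r of 0.38, -0.68 and 0.20 with the mean of the other members in the 3 experiments, and another bright probe set of Psmd14 had 0.60, 0.80 and 0.80. The r of these with each other was 0.20, -0.40 and 0.026. For Psmc6 the representing probe set and the next brightest had r of 0.60, 0.66 and 0.89, while the dimmest of its 3 had 0.30, -0.054 and -0.14 with the first. That dimmest Psmc6 probe set differed by 0.32 after the lesion (limma, adjusted p = 0.506), and the representing one by -0.017. A further dim probe set of Psmd14 differed by 0.38 after the lesion (limma, adjusted p = 0.551), and the representing one by -0.018. For Psmd11 the 2 bright probe sets had r of -0.46, 0.32 and 0.081, and for Psmd7 0.19, 0.61 and 0.72. The second bright Psmd11 probe set differed by 0.0098 between clozapine and haloperidol, against -0.14 for the representing one.

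The genes outside the list whose variation within groups was most like the mean of the members, ranked over 9958 genes by the lowest r of the 3 experiments, were Commd2 (0.80), Supt4h1 (0.75), Dhrs7b (0.75), Erlec1 (0.74), Ptrh2 (0.72), Atp5mg (0.71), Naa20 (0.70), Mrps7 (0.69), Insig2 (0.69) and Ostc (0.69).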

How the data were processed

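RNA of rat frontal cortex was measured on Affymetrix arrays. The deposited table holds 1 linear intensity per probe set and array; how the authors summarised the probes is not stated (software: not given in the sources used here). Each array's deposited intensity values had been scaled by the authors: the mean after trimming 2% at each end was 2500.6 to 2500.8, and the medians 775.1 to 962.3. Identical values on 2 arrays were looked for, with 0 such pairs. Replicate numbers follow accession order and pair nothing.

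Here, the 31042 probe sets that remained without 57 controls were quantile-normalised per experiment, and values under 32 (6.04%) were set to that floor before taking log2. The test used the brightest 60% in an experiment, 18625 probe sets. Quantile normalisation gives all arrays of an experiment one distribution, so a shift common to all genes cannot be seen. limma 3.58.1 (lmFit, eBayes) in R 4.3.3 fitted 1 mean per group, with Benjamini-Hochberg adjustment over the tested probe sets and calls at an adjusted p under 0.05. Lesion and TTX had separate fits and 1 joint fit for the difference of their effects; the 7 neuroleptic groups shared a fit, with a drug's mean taken over its 3 dose levels. The fit was tested on simulated data with independent noise for each probe set, without shifts between runs or correlation between genes.

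Gene names came from the platform annotation (20826 probe sets with 1 symbol, 436 with several, 9780 with none); RefSeq's GRCr8 table changed 0 symbols and gave gene order and promoter sequences. The members and lists were chosen with earlier results of these data known. Named were, per comparison, the 3 members with the smallest p in each direction, the cutting subunits and their inducible forms; in the 4 main comparisons up to 2 pathway and 2 interferon genes in each direction; and the 10 genes most like the members. Members with an unadjusted p under 0.05, the neighbours of Psmb9, the 2 correlated sets and the members of 1 sign in all 8 groups were named after their values were seen. Alternatives, added ones included, covered normalisation, floor, filter, probe set choice, array weights, runs, arrays of low correlation and each array left out. Figures were drawn with matplotlib 3.10.9.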

Additional observations from a re-analysis of the deposited data

Results flagged for a closer look

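The arrays of 9 groups, with 8 to 10 each, were examined. In 20 of 360 combinations of a group with a member or a mean of members, 1 array lay far from the rest, where chance gives about 1 in 20. High haloperidol replicate 8, an array of low correlation, gave 6 of them: Psma3 at 13.42, Psma7 at 14.39, Psmb1 at 15.08, Psmb4 at 15.40 and Psmc1 at 14.30 were its group's highest values, and Psmb8 at 6.34 its lowest. Lesion sham replicate 9, also of low correlation, was the lowest of its group for Psma4 at 12.49, for Psmd8 at 12.75 and for the mean of the members at -0.14. Lesion sham replicate 10 was the highest for Psmd12 at 12.80.

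In the TTX sham group Psmb9 was at 10.45 on replicate 7 and Psmd1 at 12.79 on replicate 5, both above the rest, and on vehicle replicate 3 Psma6 was at 14.53, below the rest. Among clozapine arrays Psma4 was at 12.59 on high replicate 3 and Psmd1 at 11.93 on high replicate 7, both below the rest, and Psmb8 at 9.85 on medium replicate 4, above the rest. Among haloperidol arrays Psmb8 at 7.45 and Psmd7 at 13.48 on low replicate 2, Psmd3 at 12.11 on low replicate 9 and Psmd6 at 13.82 on medium replicate 4 lay below the rest.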

How the results depend on the processing

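The count of members past the threshold was 0 under each alternative run. The lowest adjusted p (limma) of the 26 single-member results under any alternative was 0.0692, for Psmc4 between clozapine and haloperidol with array weights. Averaging the probe sets of a gene turned 3 signs: Psme1 after TTX to 0.106, Psmc4 between the drugs to -0.126, and Psme1 in the difference of lesion and TTX to -0.0119, where the dim probe sets enter by construction. Within single runs of sample numbers the median of the members was -0.101 in run 1 and 0.0913 in run 2 for haloperidol, -0.126 in run 1 for low clozapine, -0.110 and 0.0937 in runs 1 and 2 for low haloperidol, 0.0890 in run 2 for medium haloperidol, and -0.101 and 0.0849 in runs 1 and 2 for high haloperidol; each rests on 2 vehicle arrays and the cause was not tested. With each array left out in turn the median ran from 0.031 to 0.072 for the lesion, -0.0046 to 0.017 for TTX, -0.0035 to 0.033 for clozapine, -0.038 to -0.015 for haloperidol, -0.016 to 0.022, 0.012 to 0.059 and -0.0093 to 0.032 for low, medium and high clozapine, -0.053 to -0.023, -0.028 to -0.0022 and -0.046 to 0.0023 for low, medium and high haloperidol, 0.032 to 0.042 between the drugs and 0.023 to 0.069 for the difference of lesion and TTX. Its sign changed for TTX without sham replicate 2 or TTX replicate 8, for clozapine without vehicle replicate 3, for low clozapine without vehicle replicates 3 or 4 or its own replicates 6, 8 or 10, for high clozapine without vehicle replicates 3 or 4 or its own replicates 5 or 6, and for high haloperidol without its own replicate 1. The filter at the highest 40% gave no value for Psmb9, which it leaves out. No paired analysis was possible because the labels give no replicate numbers shared between groups. Run 3 holds no high haloperidol and run 4 no medium clozapine array. Signal over background limits Psmb8, Tap1 and Tap2, which were under the filter in the neuroleptic experiment.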
